A study of Mus musculus with 9 samples.

Results

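Kidney transcriptomes of Gsdmd-/- mice and wild-type mice were compared after pristane treatment. The comparison took in 6 of the 9 libraries of the series, chosen by their labels: 3 from wild-type mice with pristane-induced lupus (PIL) and 3 from Gsdmd-/- mice. Of the 21935 genes in the count table, 17680 had at least 1 count and 14069 had enough counts to be tested. Female C57BL/6 mice aged 4 weeks received a single intraperitoneal injection of 0.5 ml of pristane oil, or of saline in the control mice, and were killed 31 weeks later. RNA was taken from whole kidney. The knockout was constitutive, so that every cell type carried it, and its wild-type controls were described as littermates. The part of Gsdmd that was deleted, and whether each library came from a single mouse, were not given in the sources used here, so that p-values measure the spread between these libraries, which may be technical. GEO's record gives the treatment of the Gsdmd-/- samples as none, whereas the study's methods and text describe them as pristane-treated; they are treated here as pristane-treated, and the difference could not be settled. The 3 saline libraries entered the filter on low counts, the scaling and the shared estimate of the spread, but not the contrast itself. Their values are given where they help to place a level.

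Gasdermin D, the product of Gsdmd, is the pore-forming protein of pyroptosis. Inflammasomes activate caspase-1, and cytosolic lipopolysaccharide activates caspase-11 in mice; these proteases cut gasdermin D and free its N-terminal part, which inserts into membranes and opens pores. Interleukin-1 beta and interleukin-18 leave the cell through such pores, and in neutrophils gasdermin D has also been linked to the release of chromatin as extracellular traps. Pristane, a hydrocarbon oil, provokes a chronic peritoneal inflammation in mice with type I interferon production, autoantibodies and immune complex deposits in the glomeruli. The comparison asks which kidney transcripts differ in the pristane model when gasdermin D is missing.

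The 9 libraries held between 13311063 and 16299328 counts. In the 6 libraries compared, the wild-type libraries were far less alike than the knockout libraries. Pearson's r of log2-transformed, library-scaled read counts (CPM) across genes was 0.9856 to 0.9877 among the Gsdmd-/- libraries and 0.9256 to 0.9691 among the PIL libraries, and PIL library 3 lay close to the knockouts. On the first principal component of the 6 libraries, which held 70.8% of the variance, the PIL libraries lay at -80.2, -37.2 and 16.6 and the Gsdmd-/- libraries at 28.9, 40.7 and 31.3. Mitochondrially encoded genes took 7.22%, 9.71% and 13.3% of the counts in PIL libraries 1, 2 and 3, and between 12.4% and 13.4% in the Gsdmd-/- libraries. The tissue label matched its markers, since all 40 proximal tubule genes listed passed the filter, with summed levels of 24230 to 67450 CPM. Although all mice were described as female, the saline libraries held 1854, 1882 and 3077 counts of Y-linked genes, and the other 6 libraries held 0. A difference from the saline libraries, wherever one is given below, therefore cannot be told apart from a difference in sex. Saline library 2 also stood apart in its interferon-stimulated genes. Results are therefore also given without the saline libraries or without PIL library 3 where this changed them.

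Gsdmd itself (ENSMUSG00000022575, chromosome 15, 75862327 to 75867408, plus strand, mm10) was measured first, as a check of the genotype labels. Its level was 6.56, 20.1 and 10.7 CPM in PIL libraries 1, 2 and 3, and 2.06, 2.04 and 1.61 CPM in Gsdmd-/- libraries 1, 2 and 3; all values below are given in this order, as CPM scaled by trimmed mean of M-values (TMM). The groups did not overlap, and the knockout mean was 15.3% of the PIL mean and 24.8% of the saline mean. The saline libraries held 7.06, 11.6 and 4.404 CPM. Between 24 and 30 Gsdmd reads were still counted in each Gsdmd-/- library, against 117 to 337 in the PIL libraries. The log2 fold change, Gsdmd-/- over PIL, was -2.71 (SE 0.48). An exact two-sided permutation test over the 6 libraries gave p = 0.1, the smallest p that 3 against 3 libraries allow. Gsdme, which encodes the gasdermin cut by caspase-3, lay at 24.3, 26.1 and 22.1 CPM in PIL and 23.3, 21.9 and 23.9 CPM in Gsdmd-/- kidneys, with overlapping groups (log2 fold change -0.07, SE 0.17).

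Across all genes, no gene passed the main test, edgeR's quasi-likelihood F-test at a Benjamini-Hochberg adjusted p under 0.05 (0 of 14069, 0.0%). At an unadjusted p under 0.05, edgeR had 1826 genes lower in Gsdmd-/- kidneys (13.0%) and 1116 higher (7.93%), 2942 in all. The count depended on the tool. DESeq2, the tool the study used, called 878 genes on the same 9 libraries, of which 702 were lower in Gsdmd-/- kidneys (4.99%) and 176 higher (1.25%), and limma-voom with quality weights called 6443. It depended as much on 1 library. With PIL library 3 left out, edgeR called 1749 genes lower (12.2%) and 1455 higher (10.1%). In 1989 genes all 3 Gsdmd-/- libraries were lower than all 3 PIL libraries (14.1%), and in 1939 all 3 were higher (13.8%). Over the 1989 lower genes, the PIL libraries exceeded the Gsdmd-/- mean by medians of 0.90, 0.61 and 0.32 on the log2 scale, so that the excess was largest in PIL library 1 and smallest in PIL library 3. For the 1939 higher genes these medians were -0.64, -0.37 and -0.19. The words lower and higher in what follows describe levels; calls are those of DESeq2 unless edgeR is named, and no gene passed edgeR. In bulk tissue, fewer cells of a type and less RNA per cell cannot be told apart, here and in every list below. The genes named in each list are mostly its members of lowest edgeR p. Their separation between the groups is therefore not independent of that choice.

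**Figure D1:**
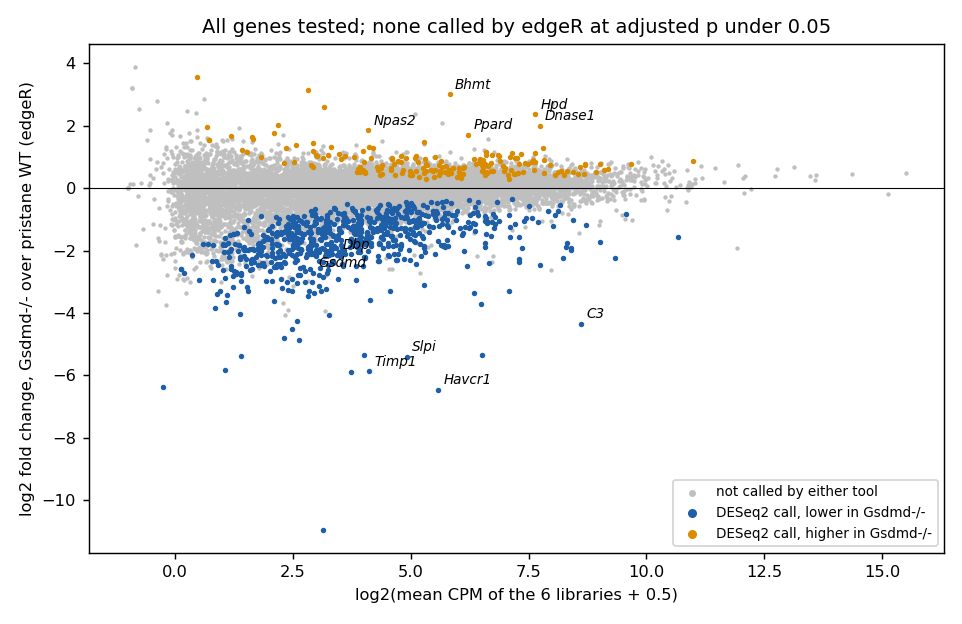
Log2 fold change (Gsdmd-/- over PIL, edgeR) of each of the 14069 genes tested against the log2 of its mean CPM over the 6 libraries plus 0.5. Blue points mark the 702 genes that DESeq2 called lower and orange points the 176 called higher; the called lower genes reach much larger fold changes than the called higher ones. The lowest point is Mmp10, which had 0 counts in all 3 Gsdmd-/- libraries, so that its fitted value depends on the prior count.

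The 5 genes with the lowest edgeR p in the lower direction included 4 matrix or matrix-binding genes, and all had Gsdmd-/- levels near or below those of the saline libraries. Grap2, an adaptor of T cell receptor signalling, was at 7.46, 9.07 and 6.39 CPM in PIL and 1.71, 0.909 and 1.74 CPM in Gsdmd-/- kidneys (log2 fold change -2.38, SE 0.31, edgeR adjusted p = 0.111). It lies on the same chromosome as Gsdmd, 4.71 Mb away. Itga9, an integrin subunit that binds tenascin and osteopontin, was at 39.9, 40.9 and 33.6 CPM against 21.4, 18.6 and 21.3 CPM (log2 fold change -0.90, SE 0.12, adjusted p = 0.111). Svep1, an extracellular matrix protein that is a ligand of that integrin, was at 57.1, 42.5 and 42.2 CPM against 23.3, 20 and 19.2 CPM (log2 fold change -1.18, SE 0.17, adjusted p = 0.111). The PIL libraries lay close together for these 3 genes, unlike for most inflammatory genes described below, although a low p favours genes with little spread. Thbs2, which encodes the matricellular protein thrombospondin-2, was at 33.8, 22.6 and 15.9 CPM against 7.13, 7.12 and 8.03 CPM (log2 fold change -1.70, SE 0.28, adjusted p = 0.127). Dcn, the collagen-binding proteoglycan decorin, was at 91.2, 101 and 40.1 CPM against 24.1, 17.5 and 23.6 CPM, below the 51.6 to 66.2 CPM of the saline libraries (log2 fold change -1.83, SE 0.31, adjusted p = 0.127).

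In the higher direction the genes of lowest p were a metabolic enzyme, a clock factor, a protease inhibitor-like gene, a nuclear receptor and a nuclease. Bhmt (chromosome 13, 93616675 to 93637961, minus strand), the betaine-homocysteine methyltransferase that remakes methionine, had the lowest p of all genes: 8.13, 12.9 and 16.2 CPM in PIL and 65.6, 145 and 90.2 CPM in Gsdmd-/- kidneys (log2 fold change 3.02, SE 0.38, edgeR adjusted p = 0.111, DESeq2 adjusted p = 1.16e-11). The saline libraries held 1.91 to 4.26 CPM, so that the Gsdmd-/- kidneys were above both wild-type groups. Wfdc16, a member of the WAP four-disulfide core family, showed the same order, with 2.47, 2.21 and 2.48 CPM against 10.5, 20 and 13.3 CPM (log2 fold change 2.61, SE 0.36, adjusted p = 0.111) and 1.03 to 2.64 CPM in saline kidneys. Ppard, the lipid-sensing nuclear receptor PPAR delta, was at 30.8, 33.7 and 38.7 CPM against 88.1, 127 and 124 CPM (log2 fold change 1.72, SE 0.27, adjusted p = 0.127), also above the saline range of 30.0 to 60.3 CPM. Dnase1, a secreted nuclease that digests extracellular DNA and whose loss is linked to lupus, was at 54.7, 88.6 and 112 CPM against 223, 466 and 333 CPM (log2 fold change 2.00, SE 0.32, adjusted p = 0.127). Here the saline libraries, at 182 to 255 CPM, lay within or just under the Gsdmd-/- range. Npas2, the fifth gene, is described with the clock genes.

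A further 4 genes of low p, named after their values were seen, lay higher in every Gsdmd-/- library. Hpd, which encodes the tyrosine-degrading enzyme 4-hydroxyphenylpyruvate dioxygenase, was at 51.1, 86.0 and 57.2 CPM in PIL and 219, 492 and 287 CPM in Gsdmd-/- kidneys (log2 fold change 2.36, SE 0.53). Igf1r, the receptor of insulin-like growth factor 1, differed by less but with little spread, at 90.9, 97.4 and 93.5 CPM against 138, 166 and 159 CPM (log2 fold change 0.72, SE 0.12). Slc16a1, the monocarboxylate transporter MCT1, had a log2 fold change of 1.15 (SE 0.19), and Clpx, the chaperone subunit of a mitochondrial protease, one of 0.98 (SE 0.16). DESeq2 called all 4 of them. The saline libraries held 169 to 206 CPM of Igf1r, above every knockout, and 150 to 202 CPM of Clpx, overlapping the knockouts. Hpd was at 26.3 to 98.1 CPM in saline kidneys, below every knockout, and Slc16a1 at 70.0 to 100 CPM, overlapping the lowest knockout at 99.1 CPM.

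**Figure D2:**
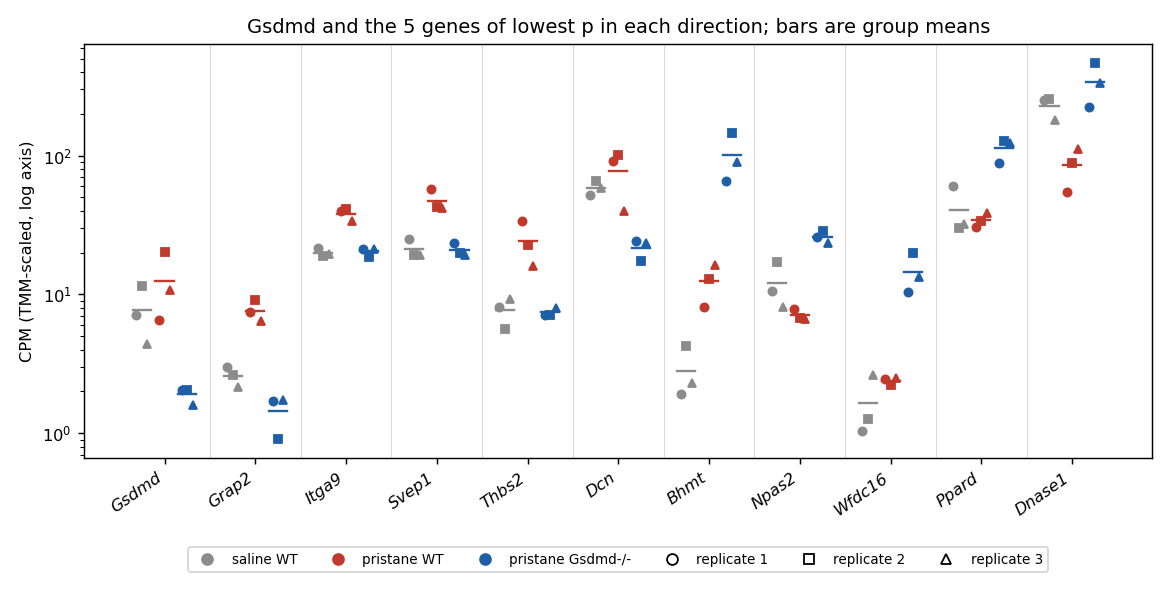
TMM-scaled CPM on a log axis for Gsdmd and the 5 genes of lowest edgeR p in each direction; each point is a library, its shape is the replicate number, and bars are group means. In all 11 genes the 3 Gsdmd-/- libraries and the 3 PIL libraries do not overlap, and for Bhmt, Npas2, Wfdc16 and Ppard the Gsdmd-/- libraries also lie above all saline libraries.

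The study labelled 12 genes in its own display of this contrast, and these were chosen on the same libraries, so that their direction is not independent evidence. Of these, 1 is not analysed here, and Ccl7 had too few counts to be tested (133, 76 and 7 counts in PIL, 4, 2 and 1 in Gsdmd-/- kidneys). In all 10 tested genes the groups did not overlap, with 6 lower and 4 higher in Gsdmd-/- kidneys, and DESeq2 called the 4 higher genes and 1 of the lower ones. Cdkl1, a cyclin-dependent kinase-like gene, was at 50.5, 81.4 and 90.0 CPM in PIL and 150, 168 and 146 CPM in Gsdmd-/- kidneys (log2 fold change 1.07, SE 0.20), and Osbpl8, an oxysterol-binding protein family member, had a log2 fold change of 1.003 (SE 0.24). Both were higher, as were Ppard and Dnase1. Saline kidneys held 87.3 to 107 CPM of Cdkl1, below every knockout, and 152 to 230 CPM of Osbpl8, around the knockout range. Cx3cr1, the fractalkine receptor of monocytes and macrophages, was at 42.2, 34.1 and 14.6 CPM against 9.88, 8.33 and 12.4 CPM (log2 fold change -1.57, SE 0.35) and was the called lower gene. For Il1b, the cytokine released through gasdermin D pores, PIL kidneys had 13.9, 13.6 and 5.57 CPM and Gsdmd-/- kidneys 3.29, 5.15 and 3.41 CPM, a difference that did not pass DESeq2 (adjusted p = 0.0584). Ccl4, a chemokine for monocytes and T cells, gave an adjusted p of 0.0565 with a log2 fold change of -1.77 (SE 0.59). Trim5, a capsid-sensing restriction factor family member, differed least (log2 fold change -0.40, SE 0.34).

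Type I interferon-stimulated genes, which are induced through the interferon alpha/beta receptor and carry the blood and tissue signature of lupus, were mostly lower in Gsdmd-/- kidneys by a small margin. Of 66 genes listed, 62 were tested, with a median log2 fold change of -0.78 against -0.00 over all genes. In 41 of the 62 every Gsdmd-/- library was below every PIL library, set beside 14.1% of all genes, and in 0 was it the reverse. DESeq2 nevertheless called only 3 of them, 4.84% of the list against 4.99% of all genes, and edgeR 0. Irf7, the transcription factor that amplifies interferon production, was at 95.1, 71.7 and 26.8 CPM in PIL and 15.3, 16.7 and 20.2 CPM in Gsdmd-/- kidneys (log2 fold change -1.89, SE 0.93, edgeR adjusted p = 0.267). Isg15, a ubiquitin-like modifier, was at 16.6, 12.6 and 4.66 CPM against 3.70, 3.48 and 3.61 CPM (log2 fold change -1.66, SE 0.84, adjusted p = 0.278). Both shared a shape in which PIL libraries 1 and 2 were several-fold above the knockouts and PIL library 3 only slightly. Zbp1, a sensor of left-handed nucleic acids that can start necroptosis, stood out in this list with 19.6, 12.2 and 5.49 CPM against 1.44, 1.44 and 1.74 CPM (log2 fold change -3.01, SE 0.68, DESeq2 adjusted p = 0.000317). Relative to the Gsdmd-/- mean, the list's median was 1.10, 0.82 and 0.29 higher in PIL libraries 1, 2 and 3. Among the saline libraries it was 0.45, 1.74 and -0.06, so that saline library 2, with 346 CPM of Irf7, exceeded every pristane-treated kidney. The edgeR fit shares its spread with these saline libraries, and on the 6 libraries alone it called 1 gene, none of this list.

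Promoters of these genes were read to show the sequence that interferon-activated factors bind. The interferon-stimulated response element holds 2 GAAA repeats spaced by 2 bases, written here as GAAANNGAAA and searched on both strands in windows of 300 bases, 250 before and 50 after each RefSeq start (GRCm38.p6). It was present in 3.44% of all 32851 windows, and in 47.5% of the 61 windows of the interferon-stimulated list, which matched 49 of its 62 tested genes. Of these 49 genes, 26 held it, with a median log2 fold change of -0.75, against -0.53 for the 23 genes without it. The groups did not overlap and the knockouts were lower in 18 of the 26 and in 12 of the 23, set beside 14.1% of all genes. The difference between genes with and without the motif was not tested. The windows of Isg15 and of 3 further list members follow, 5′ to 3′ on the gene's strand, with matches in capitals. The 3 were taken from the members of lowest edgeR p in this contrast whose window holds the motif. Their lower levels are therefore not independent of that choice. Ifitm3 is named for its promoter and was chosen after its values were seen. All 4 lie on minus strands, at chr4:156200769-156201068 for Isg15, chr1:173912997-173913296 for Ifi211, chr1:174031706-174032005 for Ifi205 and chr7:141010695-141010994 for Ifitm3.
Isg15: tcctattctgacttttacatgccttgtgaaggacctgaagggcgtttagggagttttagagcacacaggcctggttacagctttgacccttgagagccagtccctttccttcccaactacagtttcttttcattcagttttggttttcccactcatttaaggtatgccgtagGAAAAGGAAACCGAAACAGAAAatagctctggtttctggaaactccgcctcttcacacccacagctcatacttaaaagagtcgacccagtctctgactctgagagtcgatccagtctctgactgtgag
Ifi211: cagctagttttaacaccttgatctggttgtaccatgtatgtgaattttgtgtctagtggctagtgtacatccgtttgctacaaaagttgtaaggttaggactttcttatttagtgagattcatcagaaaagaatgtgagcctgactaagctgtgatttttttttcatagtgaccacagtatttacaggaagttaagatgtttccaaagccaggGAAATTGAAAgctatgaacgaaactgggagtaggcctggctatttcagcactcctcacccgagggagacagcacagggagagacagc
Ifi205: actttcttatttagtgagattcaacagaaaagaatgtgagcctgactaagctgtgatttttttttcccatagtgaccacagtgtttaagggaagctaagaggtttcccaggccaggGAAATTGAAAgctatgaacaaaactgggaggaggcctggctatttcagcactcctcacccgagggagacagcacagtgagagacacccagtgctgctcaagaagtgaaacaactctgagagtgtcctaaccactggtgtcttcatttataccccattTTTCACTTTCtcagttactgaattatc
Ifitm3: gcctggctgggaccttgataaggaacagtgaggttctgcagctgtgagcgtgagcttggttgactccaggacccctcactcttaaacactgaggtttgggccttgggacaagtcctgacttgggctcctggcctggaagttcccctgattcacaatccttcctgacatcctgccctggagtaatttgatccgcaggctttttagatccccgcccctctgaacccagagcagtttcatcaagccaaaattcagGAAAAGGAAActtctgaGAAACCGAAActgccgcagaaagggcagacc

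In Isg15 the 3 matches overlap and begin 78, 72 and 66 bases before the start; in Ifi211 and Ifi205 nearly identical stretches hold a match 37 and 134 bases before it. Ifi205 has a further match on the opposite strand, 23 bases after the start, and Ifitm3 has its matches 2 and 19 bases after it. Ifi211 and Ifi205 encode DNA-binding proteins of the interferon-inducible p200 family, whose copies are so alike that reads may be split between them. Ifi211 was at 10.9, 8.95 and 4.14 CPM in PIL and 2.40, 1.74 and 2.68 CPM in Gsdmd-/- kidneys (log2 fold change -1.82, SE 0.57), and DESeq2 called it. Ifi205 was at 2.41, 2.33 and 1.05 CPM against 0.686, 0.303 and 0.803 CPM and was not called (log2 fold change -1.68, SE 0.58). Ifitm3, a membrane protein that blocks virus entry, was at 162, 136 and 54.0 CPM against 42.6, 39.0 and 47.8 CPM (log2 fold change -1.44, SE 0.56, DESeq2 adjusted p = 0.168). In each of these genes the lowest PIL library was number 3. The same motif stood in 12 of the 29 matched genes of the interferon-gamma and antigen presentation list (41.4%), 2 of 24 matrix genes (8.33%) and 1 of 28 monocyte and macrophage markers (3.57%); a match describes the letters and is no evidence of binding.

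With all libraries in, genes of the interferon-gamma response and antigen presentation were lower by more than the type I list. The median over 36 tested genes was -1.08 on the log2 scale, 27 did not overlap and were lower (75%, against 14.1% of all genes), and DESeq2 called 11 (30.6%, against 4.99%). Without PIL library 1 the median was -0.63, which makes this list one of those that lean on that library. The type I list had a median of -0.68 in that fit, so that the order of these lists turned. Ciita, the master regulator of MHC class II, was at 32.6, 13.7 and 13.2 CPM in PIL and 6.93, 4.47 and 4.75 CPM in Gsdmd-/- kidneys (log2 fold change -1.88, SE 0.39). Its target H2-Eb1, a class II beta chain, was at 981, 424 and 211 CPM against 150, 123 and 138 CPM (log2 fold change -1.97, SE 0.55). H2-DMb1, which helps to load peptides onto class II, was at 91.6, 49.3 and 40.5 CPM against 22.6, 22.7 and 22.7 CPM, with almost no spread among the knockouts (log2 fold change -1.42, SE 0.34). Ifngr2, a chain of the interferon-gamma receptor, had a log2 fold change of -0.91 (SE 0.23). In all 4 genes PIL library 1 was highest, PIL library 3 lowest, and no Gsdmd-/- library reached a PIL library. These genes were named for their low p in this contrast, so that the separation is not independent of the choice.

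Of 48 cytokines and chemokines, 32 were tested, with a median log2 fold change of -1.69; DESeq2 called 16 lower and 0 higher (50% lower, against 4.99% of all genes), and 19 did not overlap and were lower (59.4%, against 14.1%). The median was -1.07 without PIL library 1. Ccl2, the main monocyte attractant, was at 24.6, 18.9 and 3.69 CPM in PIL and 2.54, 0.303 and 2.14 CPM in Gsdmd-/- kidneys (log2 fold change -3.23, SE 0.80). Ccl9, a mouse chemokine of myeloid cells, was at 36.6, 14.6 and 4.51 CPM against 2.19, 1.82 and 3.35 CPM (log2 fold change -2.92, SE 0.67). Its relative Ccl6 had a log2 fold change of -2.23 (SE 0.48). Cx3cl1, fractalkine itself, made by endothelium and epithelium, was at 279.6, 180.5 and 124 CPM against 97.99, 77.6 and 68.6 CPM (log2 fold change -1.26, SE 0.30), so that both the ligand and its receptor were lower. Il18, the other cytokine released through gasdermin pores, was at 3.53, 5.19 and 2.48 CPM against 2.19, 1.59 and 1.94 CPM and was not called (log2 fold change -0.97, SE 0.32). Several members below the filter, picked after their counts were seen, were counted mainly in PIL libraries 1 and 2: Cxcl5, a neutrophil attractant, had 115, 99 and 2 counts against 2, 1 and 2, and Cxcl2, another, 71, 43 and 5 against 0, 2 and 9.

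Receptor genes were lower as well. Of 36 tested cytokine and chemokine receptor genes DESeq2 called 14 lower and 0 higher (38.9% lower, against 4.99% of all genes), 26 did not overlap and were lower (72.2%, against 14.1%), and the median log2 fold change was -1.28. Ccr7, which guides dendritic cells and T cells to lymphoid tissue, was at 4.82, 1.19 and 1.81 CPM in PIL and 0.343, 0.303 and 0.134 CPM in Gsdmd-/- kidneys (log2 fold change -3.30, SE 0.64). Il10ra, the ligand-binding chain of the interleukin-10 receptor, was at 33.8, 27.9 and 12.2 CPM against 6.45, 5.53 and 9.50 CPM (log2 fold change -1.78, SE 0.39). Il2rg, the common gamma chain of lymphocyte cytokine receptors, was at 12.1, 7.70 and 5.12 CPM against 2.81, 2.12 and 2.68 CPM (log2 fold change -1.71, SE 0.37).

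Upstream of gasdermin D, the inflammasome list (26 of 31 genes tested) had a median log2 fold change of -0.97, with 7 genes called lower by DESeq2 and 0 higher (26.9% lower, against 4.99% of all genes). Gsdmd, lost by design, is a member and is among the 7. Casp1, the protease that cuts gasdermin D and matures interleukin-1 beta, was at 10.3, 7.82 and 5.19 CPM in PIL and 2.54, 2.42 and 3.35 CPM in Gsdmd-/- kidneys (log2 fold change -1.49, SE 0.29), close to the 2.30 to 2.65 CPM of saline kidneys. Pycard, the adaptor ASC, was at 12.7, 10.1 and 9.10 CPM against 5.83, 4.999 and 5.55 CPM (log2 fold change -0.96, SE 0.18), and the saline kidneys held 5.22 to 5.67 CPM. Aim2, a sensor of cytosolic DNA, was at 6.06, 5.43 and 3.54 CPM against 2.19, 1.89 and 2.01 CPM (log2 fold change -1.30, SE 0.29). These 3 genes had Gsdmd-/- levels near the saline levels and well apart from all PIL libraries. They were named for their low p, which favours such a separation from PIL. Of 41 tested Toll-like receptor, nucleic acid sensor and NF-kappaB genes, DESeq2 called 10 lower (24.4%, against 4.99% of all genes) and 1 higher (2.44%, against 1.25%), the latter Dnase1, and the median was -0.76. Sting1, the adaptor of cytosolic DNA sensing, was at 40.2, 20.3 and 9.93 CPM against 6.65, 4.09 and 6.49 CPM (log2 fold change -2.03, SE 0.53). Unc93b1, which carries nucleic acid-sensing Toll-like receptors to endosomes, was at 129, 85.7 and 43.8 CPM against 31.7, 31.8 and 35.1 CPM (log2 fold change -1.39, SE 0.36).

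Complement and Fc-gamma receptor genes, which act where immune complexes settle, gave some of the largest differences. Of 34 tested genes DESeq2 called 17 lower and 0 higher (50% lower, against 4.99% of all genes), and the median log2 fold change was -1.85. In 17 the groups did not overlap and the knockouts were lower (50%, against 14.1%), and in 3 they were higher (8.82%, against 13.8%). C3, the central complement component, which the kidney tubule also makes, was at 1633, 516 and 79.2 CPM in PIL and 36.8, 27.3 and 45.7 CPM in Gsdmd-/- kidneys. PIL library 1 thus held many times the C3 of PIL library 3, which still lay above every knockout (log2 fold change -4.34, SE 0.87). C3ar1, the receptor of the C3a fragment on myeloid cells, was at 28.7, 20.04 and 9.63 CPM against 5.21, 4.77 and 7.90 CPM (log2 fold change -1.71, SE 0.38). The proteases that open the classical pathway differed by less, with less spread. C1ra was at 73.2, 62.0 and 31.9 CPM against 22.6, 17.5 and 17.5 CPM (log2 fold change -1.54, SE 0.31), and C1s1 had a log2 fold change of -1.05 (SE 0.23).

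Leukocyte marker lists had negative medians for every lineage, and the myeloid list had the largest share of calls among them. All 35 tested monocyte, macrophage and dendritic cell markers had a negative log2 fold change (median -2.08); DESeq2 called 22 of them (62.9%, against 4.99% of all genes) and 23 did not overlap (65.7%, against 14.1%). Their summed level was 7078, 4094 and 1293 CPM in PIL and 1301, 1288 and 1359 CPM in Gsdmd-/- kidneys, so that PIL library 3 was not above the knockouts in the sum although its median over genes was 0.49 higher on the log2 scale. Cd68, a lysosomal macrophage protein, was at 50.02, 34.9 and 13.6 CPM against 6.72, 4.999 and 7.90 CPM (log2 fold change -2.33, SE 0.43). Trem2, a lipid receptor of phagocytes, was at 14.1, 9.84 and 1.96 CPM against 0.549, 0.833 and 1.27 CPM (log2 fold change -3.28, SE 0.70). Mrc1, the mannose receptor, was highest in PIL library 2, at 27.5, 33.7 and 11.9 CPM against 7.61, 6.67 and 9.64 CPM (log2 fold change -1.61, SE 0.35). Gpnmb, a glycoprotein of lipid-laden macrophages added after its values were seen, overlapped, with 18.8, 6.03 and 0.752 CPM against 0.411, 0 and 1.07 CPM.

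Lymphocyte and neutrophil markers did not share 1 pattern across the PIL libraries. The 25 tested T and NK cell markers were all negative (median -1.97, or -1.28 without PIL library 1), and DESeq2 called 11 (44%, against 4.99% of all genes). Cd6, a T cell surface receptor, was at 8.41, 2.39 and 2.41 CPM in PIL and 0.686, 0.227 and 0.401 CPM in Gsdmd-/- kidneys (log2 fold change -3.30, SE 0.71). Lck, the kinase of the T cell receptor, was at 16.7, 5.19 and 4.97 CPM against 1.92, 1.67 and 1.67 CPM (log2 fold change -2.35, SE 0.52), and Cd4 had a log2 fold change of -2.07 (SE 0.48). For these 3 genes PIL library 1 was highest and libraries 2 and 3 lay close together, whereas Thy1, a surface glycoprotein of T cells, was at 31.7, 10.3 and 6.85 CPM against 3.70, 2.73 and 3.21 CPM. Below the filter, and picked after their counts were seen, Foxp3, the factor of regulatory T cells, had 67, 7 and 2 counts against 5, 2 and 2, Ctla4, an inhibitory receptor, 61, 7 and 3 against 1, 1 and 1, and Ccl22, a chemokine for regulatory T cells, 183, 4 and 8 against 2, 1 and 6. B cell and plasma cell markers had a median of -1.38 over 16 tested genes, and -0.51 without PIL library 1. DESeq2 called 4 of them lower (25%, against 4.99% of all genes). In 4 the groups did not overlap and the knockouts were lower (25%, against 14.1%), and in 1 they were higher (6.25%, against 13.8%). The log2 fold change was positive in 2 of the 16, up to 1.03. Pou2af1, a B cell co-activator, was at 19.0, 18.6 and 1.88 CPM against 1.85, 0.757 and 1.20 CPM (log2 fold change -3.36, SE 0.75), nearly overlapping at PIL library 3. Cd79b, a chain of the B cell receptor, was at 12.2, 5.25 and 2.41 CPM against 1.58, 0.682 and 1.20 CPM (log2 fold change -2.51, SE 0.59).

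Of 26 neutrophil markers 17 were tested, at a median of -2.29 on the log2 scale, and 5 were called lower (29.4%, against 4.99% of all genes). The median was -1.53 without PIL library 2, and over all alternatives it lay between -3.47 and -1.47. Their summed level was 490, 208 and 33.5 CPM in PIL and 23.9 to 25.8 CPM in Gsdmd-/- kidneys, but Lcn2, which injured tubule cells also make, was a large share of it. Lcn2 was at 433, 98.9 and 3.16 CPM against 5.62, 2.88 and 4.68 CPM, with PIL library 3 among the knockouts. The defining granule genes were seen almost wholly in PIL library 2. Elane, neutrophil elastase, had 1, 115 and 0 counts in PIL and 0 in each Gsdmd-/- library; Mpo, myeloperoxidase, had 1, 82 and 0; Ctsg, cathepsin G, had 0, 31 and 0. Prtn3, proteinase 3, had 31, 146 and 1 counts against 4, 3 and 1. Ly6g, the marker used to gate mouse neutrophils, was barely counted in any library (0, 3 and 0 counts against 0, 1 and 0). A count of 0 in these libraries allows up to 3 counts, or between 0.184 and 0.225 CPM, counting error only. Csf3r, the G-CSF receptor of mature neutrophils, was at 14.5, 11.99 and 6.09 CPM against 2.95, 3.33 and 3.75 CPM (log2 fold change -1.70, SE 0.53) and was called by DESeq2. The saline libraries 1 and 2 lay 1.18 and 1.31 above the Gsdmd-/- mean in the list's median, a difference like that of PIL libraries 1 and 2 (1.24 and 1.72).

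**Figure D3:**
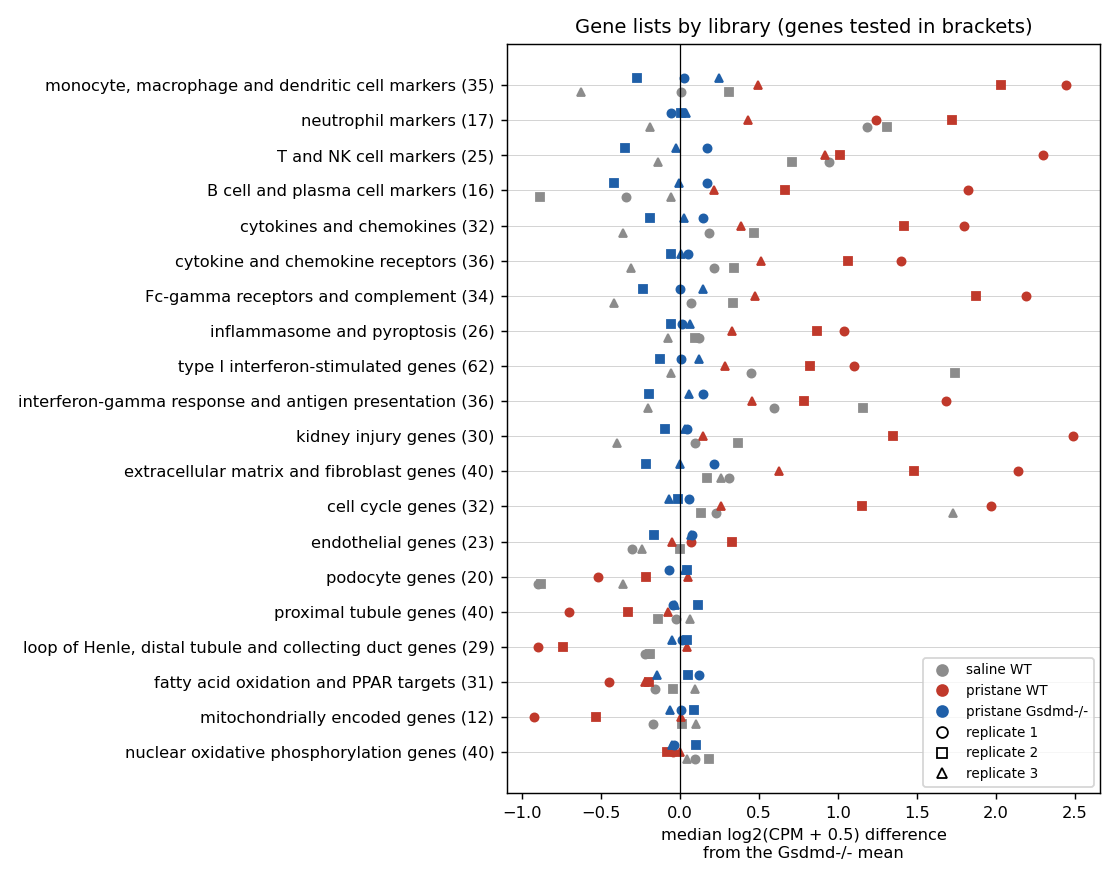
Median over each list's tested genes (number in brackets) of log2(CPM + 0.5) minus the mean of the 3 Gsdmd-/- libraries, for every library; colours are groups and shapes are replicate numbers. PIL libraries 1 and 2 lie well to the right for the immune, injury and matrix lists, PIL library 3 lies nearer to the Gsdmd-/- libraries for the injury genes (0.14) and the myeloid markers (0.49) but not for the T and NK cell markers, where it lies at 0.92 beside PIL library 2 at 1.01, and saline library 2 lies furthest right for the type I interferon-stimulated genes at 1.74.

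Genes that mark kidney injury were lower in Gsdmd-/- kidneys throughout, and the distance between the groups was set largely by PIL library 1. All 30 genes were tested and all had a negative log2 fold change; the median was -1.76, and -0.87 without PIL library 1, DESeq2 called 19 (63.3%, against 4.99% of all genes), and 16 did not overlap (53.3%, against 14.1%). Havcr1, the tubule injury protein KIM-1, was at 262, 19.1 and 0.527 CPM in PIL and 1.10, 0.227 and 1.81 CPM in Gsdmd-/- kidneys. The groups overlapped, since PIL library 3 was within the knockout range (log2 fold change -6.45, SE 1.74, and -3.23 without PIL library 1). Timp1, an inhibitor of metalloproteinases, was at 86.5, 11.0 and 1.73 CPM against 0.891, 0.454 and 0.335 CPM (log2 fold change -5.86, SE 1.37, and -3.50 without PIL library 1). Vcam1, an adhesion molecule of endothelium and of failed-repair tubule cells, was more even, at 125, 85.4 and 36.9 CPM against 24.1, 16.5 and 26.8 CPM (log2 fold change -1.87, SE 0.44). Cd44, a hyaluronan receptor, was at 31.5, 22.2 and 8.43 CPM against 4.73, 3.64 and 5.96 CPM (log2 fold change -2.12, SE 0.42). Slpi, a secreted leukocyte protease inhibitor named after its values were seen, was at 102, 68.8 and 3.23 CPM against 1.303, 1.06 and 1.74 CPM (log2 fold change -5.39, SE 1.07). Krt20, a keratin of injured tubules, had 448, 65 and 4 counts in PIL and 3, 10 and 5 in Gsdmd-/- kidneys. Across the PIL libraries these genes were high where the myeloid marker sum was high and the mitochondrial share of counts low, and the part of either in the result was not tested.

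Extracellular matrix and fibroblast genes made the list with the largest share of calls. All 40 tested genes had a negative log2 fold change (median -1.64), 32 did not overlap and were lower (80%, against 14.1% of all genes), and DESeq2 called 33 of the 40 (82.5%, against 4.99%). With PIL library 3 left out, edgeR called 35 of the 40 lower, against 12.2% of all genes. With PIL library 1 or 2 left out it called 0 genes in all, and the list's median was -1.12 or -1.61. The list's median lay 2.14, 1.48 and 0.63 above the Gsdmd-/- mean in the PIL libraries and 0.31, 0.17 and 0.26 above it in the saline libraries. Col1a1, the main fibrillar collagen chain, was at 388, 77.2 and 36.0 CPM in PIL and 16.9, 10.3 and 11.4 CPM in Gsdmd-/- kidneys (log2 fold change -3.70, SE 0.81, and -2.14 without PIL library 1); the saline libraries, at 32.9 to 74.5 CPM, were also above every knockout. Col14a1, a collagen of fibril surfaces, differed evenly between libraries, at 118, 104 and 99.1 CPM against 55.7, 40.4 and 38.5 CPM (log2 fold change -1.25, SE 0.23). Pdgfrb, a receptor of fibroblasts and pericytes, was at 131, 104 and 94.4 CPM against 69.7, 60.7 and 52.6 CPM (log2 fold change -0.85, SE 0.16), close to the 47.9 to 62.5 CPM of saline kidneys. Dcn and Thbs2, described above, belong to this list, and Dcn was likewise below the saline level in the knockouts.

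Genes of the resident kidney epithelium had small positive medians, whose size depended on the PIL libraries included. The medians were 0.33 for 40 proximal tubule genes, 0.48 for 29 genes of the loop of Henle, distal tubule and collecting duct, and 0.22 for 20 podocyte genes. DESeq2 called 1, 0 and 0 of them higher (2.5%, 0% and 0%, against 1.25% of all genes). Without PIL library 1 these medians were 0.21, 0.26 and 0.06, and without PIL library 3 they were 0.46, 0.87 and 0.32. In the latter fit edgeR called 9 of the proximal tubule genes, 15 of the loop, distal tubule and collecting duct genes and 3 of the podocyte genes higher, against 10.1% of all genes. In the proximal tubule list 10 genes did not overlap and were higher (25%, against 13.8% of all genes). The loop, distal tubule and collecting duct list had 2 such genes (6.9%) and the podocyte list 5 (25%). G6pc, the glucose-6-phosphatase of gluconeogenesis, was the called gene, at 493, 639.7 and 672 CPM in PIL and 959.8, 1130 and 1025 CPM in Gsdmd-/- kidneys (log2 fold change 0.79, SE 0.26). Slc34a3, a sodium-phosphate cotransporter, was at 44.1, 53.7 and 85.8 CPM against 90.1, 115 and 91.7 CPM and was not called (log2 fold change 0.69, SE 0.23). Against the trend of its list, Cyp27b1, the renal enzyme that activates vitamin D, was at 141, 35.4 and 11.9 CPM against 6.72, 11.7 and 10.3 CPM (log2 fold change -2.72, SE 0.84), most of it in PIL library 1. Wt1, the transcription factor of podocytes, was at 8.64, 11.1 and 15.8 CPM against 15.8, 16.8 and 17.1 CPM (log2 fold change 0.49, SE 0.22). Endothelial genes had a median of -0.12 over 23 genes (-0.29 to -0.03 over all alternatives), and Vcam1 was the one called (4.35%, against 4.99% of all genes).

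Mitochondrially encoded genes had a median log2 fold change of 0.42 over 12 tested genes, all positive. DESeq2 called 1, mt-Atp6 (8.33%, against 1.25% of all genes called higher). Its groups overlapped, at 56.2, 60.4 and 72.3 CPM in PIL and 68.4, 212.7 and 112.5 CPM in Gsdmd-/- kidneys. In 0 of the 12 were all Gsdmd-/- libraries above all PIL libraries (0%, against 13.8% of all genes). With PIL library 1 or PIL library 3 left out the list's median was 0.23 or 0.75. The list's value in PIL libraries 1, 2 and 3 followed the mitochondrial share, at -0.92, -0.53 and 0.00 relative to the Gsdmd-/- mean. mt-Nd5, a complex I subunit, was at 3361, 6188 and 10970 CPM in PIL and 11280, 11060 and 10740 CPM in Gsdmd-/- kidneys (log2 fold change 0.69, SE 0.37). PIL library 3 lay within the knockout range. Nuclear oxidative phosphorylation genes showed no such difference (median 0.03 over 40 genes, 0 called). Among 31 fatty acid oxidation genes and PPAR targets the median was 0.28; 10 did not overlap and were higher (32.3%, against 13.8% of all genes), and DESeq2 called 1, Ppard (3.23%, against 1.25%). Ppargc1a, the co-activator PGC-1 alpha that drives mitochondrial genes, was at 30.3, 53.6 and 78.3 CPM against 96.5, 98.1 and 90.0 CPM (log2 fold change 0.81, SE 0.27). Pdk4, which slows glucose oxidation and is a target of PPAR receptors, was at 14.2, 24.5 and 18.0 CPM against 115, 102 and 26.4 CPM (log2 fold change 2.10, SE 0.63), with Gsdmd-/- library 3 near the PIL range. Neither Ppargc1a nor Pdk4 was called.

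Cell cycle genes were lower, with a median of -1.64 over 32 tested genes, all negative; 18 did not overlap (56.2%, against 14.1% of all genes), DESeq2 called 8 (25%, against 4.99%), and the median was -0.99 without PIL library 1. Mcm3, a subunit of the replicative helicase, was at 22.6, 12.1 and 8.13 CPM in PIL and 5.55, 4.47 and 5.15 CPM in Gsdmd-/- kidneys (log2 fold change -1.50, SE 0.39). Mcm6, another subunit, was at 43.3, 36.1 and 34.1 CPM against 25.1, 16.4 and 24.6 CPM (log2 fold change -0.78, SE 0.19). Saline library 3 lay 1.73 above the Gsdmd-/- mean in this list's median, near PIL library 1 (1.97). Immediate early and heat shock genes had a median of -0.50 over 30 genes with 3 called lower (10%, against 4.99%). Atf3, a stress-induced transcription factor, was at 15.6, 7.04 and 3.16 CPM against 2.06, 2.42 and 2.61 CPM (log2 fold change -1.87, SE 0.51, and -1.12 without PIL library 1). Klf4, another early response factor, had a log2 fold change of -0.85 (SE 0.25). In contrast Hspd1, a mitochondrial chaperone of the same list, was higher in every knockout without being called (log2 fold change 0.53, SE 0.20).

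Of 24 clock genes DESeq2 called 3 higher in Gsdmd-/- kidneys (12.5%, against 1.25% of all genes) and 1 lower (4.17%, against 4.99%). The clock runs on CLOCK or NPAS2 paired with BMAL1, the product of Arntl, which drive Per, Cry, Nr1d1 and Dbp; ROR proteins raise Arntl and REV-ERB proteins lower it. The median log2 fold change was -0.02; 5 genes did not overlap and were higher (20.8%, against 13.8% of all genes), and 4 did not overlap and were lower (16.7%, against 14.1%). Npas2 was at 7.91, 6.801 and 6.70 CPM in PIL and 25.8, 28.9 and 23.5 CPM in Gsdmd-/- kidneys (log2 fold change 1.86, SE 0.26, edgeR adjusted p = 0.111). It was the 1 gene that edgeR called when only the 6 libraries were fitted. Arntl was at 16.2, 17.5 and 20.2 CPM against 35.9, 38.5 and 36.6 CPM (log2 fold change 1.04, SE 0.22). Rora was at 24.1, 32.3 and 31.6 CPM against 51.9, 48.5 and 50.3 CPM (log2 fold change 0.78, SE 0.15). These activators were all higher in the knockouts, whereas Dbp, an output factor, was lower, at 15.9, 16.3 and 18.1 CPM against 4.32, 4.62 and 2.54 CPM (log2 fold change -2.13, SE 0.43). Per2, a repressor, was lower in every knockout without being called (log2 fold change -0.52, SE 0.27). Nr1d1 overlapped (log2 fold change -0.09, SE 0.40), and so did Clock itself (0.53, SE 0.23). For the 4 called genes the PIL libraries lay close together, library 3 included, although a call favours genes with little spread. The saline libraries were more scattered, at 8.06 to 17.2 CPM for Npas2, 14.4 to 26.3 CPM for Arntl and 7.99 to 30.4 CPM for Dbp. For Rora the saline libraries held 40.0 to 54.3 CPM, around the knockout levels. Clock was spread over the PIL libraries, at 31.2, 42.3 and 59.8 CPM, and so was Nr1d1, at 24.1, 34.4 and 42.8 CPM. The time of day at which each mouse was killed was not given in the sources used here.

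**Figure D4:**
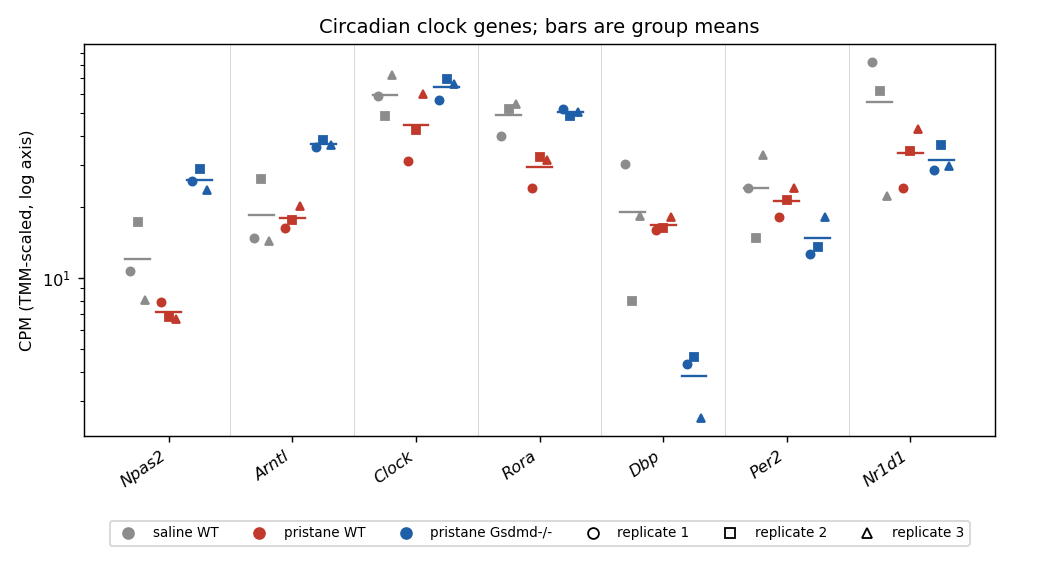
TMM-scaled CPM on a log axis of 7 clock genes in the 9 libraries; shapes are replicate numbers and bars are group means. Npas2, Arntl and Rora lie higher and Dbp and Per2 lower in every Gsdmd-/- library than in every PIL library, while Clock and Nr1d1 overlap.

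Genes next to Gsdmd were examined because a knockout can carry flanking sequence of another origin. Of the genes within 1 Mb, 60 were tested. Their median log2 fold change was -0.21, against -0.00 over all genes, with values between -2.71 and 0.95. In 49 the value was within 0.5 of 0, and the share of all genes in that range was not counted. DESeq2 called 1 of them (1.67%, against 6.24% of all genes), Ly6c2, a surface protein of inflammatory monocytes, and edgeR had 9 at an unadjusted p under 0.05 (15%, against 20.9%). In 13 of the 60 the groups did not overlap and the knockouts were lower, a larger share than the 14.1% of all genes. In 3 they were higher, a smaller share than the 13.8% of all genes, so that the neighbours leaned lower. Ly6c2 was at 21.4, 20.6 and 4.14 CPM in PIL and 3.91, 1.67 and 1.47 CPM in Gsdmd-/- kidneys. It belongs to a family of close copies, between which reads may be split. The nearest tested genes on either side overlapped between the groups: Zc3h3 had a log2 fold change of -0.20 (SE 0.25) and Naprt, an enzyme of NAD synthesis, one of 0.10 (SE 0.14). Nnt, which carries a deletion in some C57BL/6 substrains, was counted at 6, 26 and 12 reads in PIL and 11, 17 and 8 in Gsdmd-/- kidneys, a low level in both (log2 fold change -0.12, SE 0.57).

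**Figure D5:**
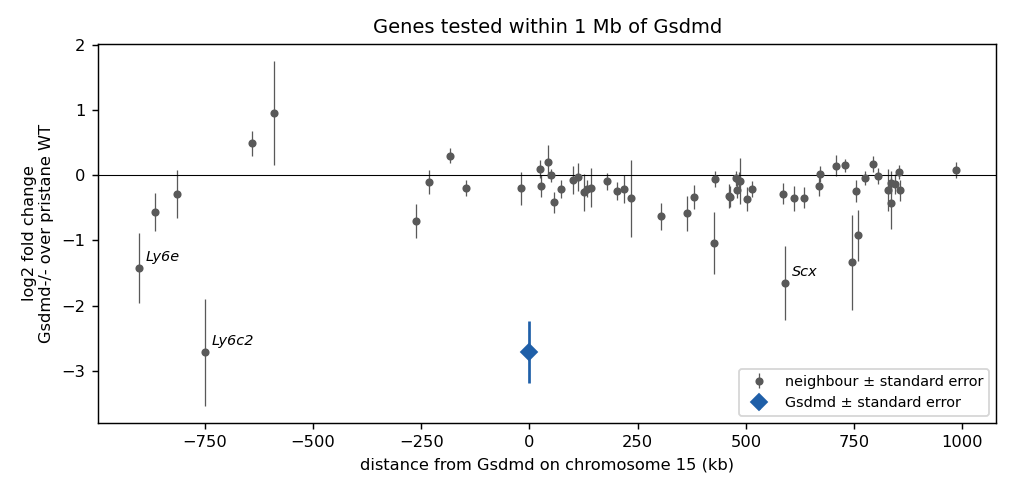
Log2 fold change (Gsdmd-/- over PIL, edgeR, bars are standard errors) of the 60 tested genes within 1 Mb of Gsdmd, against distance from Gsdmd in kb. Gsdmd lies at -2.71, and its neighbours lie between -2.71 and 0.95 with a median of -0.21.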

How the data were processed

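Whole-kidney RNA was sequenced from 9 samples in 3 groups of 3. Per the study's methods, the authors aligned paired-end reads to mm10 with Hisat2 and counted reads per gene with HTSeq (TopHat2 alignment files are also named; the strand setting and versions were not given in the sources used here). The deposited table holds raw read counts per gene, which were used, and FPKM values that the authors derived from the same counts, which served only as a check: FPKM recomputed from the counts matched the deposited values in all samples.

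Counts were analysed in R 4.3.3 with edgeR 4.0.16. Genes were filtered with filterByExpr at its defaults, which left 14069 of 21935 genes, libraries were scaled by TMM, and a 3-group quasi-likelihood model was fitted to all 9 libraries (6 residual degrees of freedom). The contrast was Gsdmd-/- minus pristane-treated wild type, called at a Benjamini-Hochberg adjusted p under 0.05 over all genes tested. CPM were TMM-scaled, and list medians per library used log2(CPM + 0.5). The alternatives tried were scaling by RLE or upper quartile, a stricter filter and none, a replicate block, DESeq2 1.42.0 on 9 and on 6 libraries, limma-voom (limma 3.58.1), edgeR on the 6 libraries alone and each library left out; leaving out each of the 6 libraries in the fit of 6 was added after seeing the data. The test was tested on simulated data.

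Members and gene lists were chosen with earlier results of these data known. Genes were named by rule: Gsdmd, the genes the study labelled, the 5 genes of lowest p in each direction (since too few passed the call), up to 4 members of lowest p in each of 28 lists, called neighbours within 1 Mb of Gsdmd, and Nnt; other genes were named after their values were seen. Of 772 listed symbols 696 were tested. Symbols, coordinates and promoter windows came from the deposited table and RefSeq (GRCm38.p6). Genes with near-identical copies and overlapping or antisense genes share reads, and their values are uncertain. A gene labelled in the study is not analysed here.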

Additional observations from a re-analysis of the deposited data

How the results depend on the processing

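The number of called genes depended on the processing, as did the sign of some genes and of some list medians, given below. It stayed at 0 under RLE scaling, upper-quartile scaling, no filter and a filter of at least 10 counts in every library, with 2651 to 3236 genes at an unadjusted p under 0.05. It was 878 under DESeq2 on 9 libraries (176 higher, 702 lower), 979 under DESeq2 on 6 libraries (162 higher, 817 lower), 6443 under limma-voom (3235 higher, 3208 lower) and 1 under edgeR on 6 libraries (1 higher, 0 lower). Calling in DESeq2 on 6 libraries by an unadjusted p under 0.05 with at least a doubling or halving gave 1111 genes (117 higher, 994 lower). Leaving out 1 library of the 9 gave 0 to 3204 calls (0 to 1455 higher, 0 to 1749 lower), all but 1 of them without PIL library 3; the 1 was Npas2, without saline library 2. In the fit of 6 libraries, chosen after seeing the data, the range was 0 to 4572 (0 to 2124 higher, 0 to 2448 lower), again from PIL library 3, with 1 call, Npas2, without PIL library 1. The cause of the difference between tools was not tested. limma-voom weighted PIL libraries 1, 2 and 3 by 0.245, 6.24 and 0.285, so that its wild-type mean rests largely on PIL library 2.

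With the replicate number as a block, edgeR called 3 genes (1 higher, Bhmt, and 2 lower, among them Svep1). The same-numbered libraries did not deviate together (correlations of their deviations 0.0945, -0.133 and -0.0317), so that the numbers give no pairing. Of 133 named genes, 125 kept their sign in every alternative run, as did the medians of 23 of 28 lists. The sign turned for Cfd without Gsdmd-/- library 3 (-0.91, and -0.97 in the fit of 6; up to 3.86 without other libraries), Hba-a2 under limma-voom (1.38), Nnt without PIL library 2 (0.48 and 0.49) or Gsdmd-/- library 3 (0.13 in both fits; down to -0.54 without others), and Nr1d1 without PIL library 3 (0.12 in both fits; down to -0.29 without others). The lists whose median changed sign were the clock genes (-0.25 to 0.15), nuclear oxidative phosphorylation genes (-0.00 to 0.08), fat genes (-0.37 to 0.84), red blood cell genes (-0.50 to 1.31) and 4 Y-linked genes (-0.04 to 0.22, at 0 in the main values). No scaling moved the median of all genes by more than 0.03 on the log2 scale. Depth limits the low genes: 7866 genes of the table had too few counts to be tested, among them most neutrophil granule genes.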

Other observations

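Genes of fat attached to the kidney varied by library rather than by group. Fat genes were counted in Gsdmd-/- library 3 more than in its group: Ucp1, the uncoupling protein of brown fat, had 37 reads there and 1 and 0 in the other Gsdmd-/- libraries, and 2, 2 and 1 in PIL; Cidea, a lipid droplet protein, had 35 against 2 and 5. Cfd, the adipocyte protease adipsin, was at 0.686, 0 and 4.55 CPM in Gsdmd-/- kidneys, and its fold change took its sign from that library. Of 9 tested fat genes DESeq2 called 0. Their median log2 fold change was 0.36, but -0.37 without Gsdmd-/- library 3, 0.14, 0.05 and 0.84 without PIL library 1, 2 or 3. Uroplakin genes, of the urinary tract lining, instead mostly set the saline libraries apart from the others. Upk3a had 61, 63 and 107 counts in saline, 5, 2 and 2 in PIL and 3, 0 and 0 in Gsdmd-/- libraries. Upk1b and Upk2 were likewise highest in saline, whereas Upk1a overlapped, at 44, 32 and 171 counts in saline and 31, 33 and 10 in PIL.

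Genes of organised lymphoid tissue were seen at low levels. Of 12 listed, 5 were tested, with a median of -2.04, or -1.02 without PIL library 2, and 3 called lower (60%, against 4.99% of all genes). In 4 the groups did not overlap and the knockouts were lower (80%, against 14.1%), and in 1 they were higher (20%, against 13.8%). Cxcl13, the chemokine that gathers B cells into follicles, was highest in PIL library 2 (5.94, 39.9 and 10.0 CPM in PIL, 4.05, 3.86 and 5.69 CPM in Gsdmd-/- kidneys; log2 fold change -2.04, SE 0.75). Ltb, lymphotoxin beta, was instead highest in PIL library 1, at 19.7, 4.83 and 2.41 CPM against 1.78, 0.757 and 1.004 CPM. Its log2 fold change was -2.92 (SE 0.78), and -1.62 without PIL library 1. The 9 red blood cell genes had no steady direction, with a median of -0.16, 0.51 without PIL library 3 and -0.50 to 1.31 over all alternatives; DESeq2 called 0.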
